A study of Mus musculus with 6 samples.

Results

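Emp3 and its relatives Emp1, Emp2 and Pmp22 make up the PMP22 family of small membrane proteins, and their transcripts were followed in mouse submandibular glands with and without Myd88. Members were found by gene symbol in the array's platform annotation, with the brightest probe set standing for a gene that has several. All 4 genes were measured, of 19505 named genes in all, and each had 1 probe set, so that no choice between probe sets arose. Emp3 was chosen by its own genotype difference, which an earlier analysis of these values had placed near the top of the table. Its difference is therefore a description with no test, and the other 3 genes entered through the family.

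The study compared whole submandibular glands, a major salivary gland, of 3 Myd88−/− mice and 3 Myd88+/+ mice. All 6 were female, 10 weeks old and labelled NOD.B6, and no treatment is named. NOD mice develop autoimmune infiltrates in salivary gland and pancreas, and Myd88 is the adaptor that links most Toll-like receptors and the interleukin-1 receptor family to NF-kB. Each mouse gave 1 Clariom S array, and values are log2 expression values on which a difference of 1 is a doubling. With 1 array per mouse, p-values set a genotype difference against the spread between these mice. Nothing in the labels says whether the mice were littermates, so a difference between litters cannot be told apart from one of genotype.

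The PMP22 family belongs to a large group of proteins that cross the membrane 4 times, a group that also holds the claudins of tight junctions. The family's own proteins carry a sugar chain on an outer loop. Pmp22 is best known from the compact myelin of Schwann cells in peripheral nerve, where too much or too little of it causes inherited neuropathy in humans, and it is also made by fibroblasts and many epithelia. Emp1 is a protein of stratified and glandular epithelia, Emp2 controls the surface display of integrins and caveolin in epithelial cells, and Emp3 is abundant in leukocytes and fibroblasts. In human cells these proteins bind the ATP receptor P2X7 when overproduced.

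The 250 bases before both annotated starts of Emp3 are shown because this gene had the widest genotype difference of the family. They come from RefSeq on GRCm38.p6, lie on the minus strand of chromosome 7 and are written 5′ to 3′, and capitals mark the letters of a searched motif.
Emp3 outer start, chr7:45921427-45921676: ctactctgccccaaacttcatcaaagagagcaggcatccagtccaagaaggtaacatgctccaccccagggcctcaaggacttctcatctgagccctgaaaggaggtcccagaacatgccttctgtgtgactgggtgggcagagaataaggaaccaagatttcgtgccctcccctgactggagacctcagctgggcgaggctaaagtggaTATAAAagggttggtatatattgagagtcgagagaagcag
Emp3 inner start, chr7:45920850-45921099: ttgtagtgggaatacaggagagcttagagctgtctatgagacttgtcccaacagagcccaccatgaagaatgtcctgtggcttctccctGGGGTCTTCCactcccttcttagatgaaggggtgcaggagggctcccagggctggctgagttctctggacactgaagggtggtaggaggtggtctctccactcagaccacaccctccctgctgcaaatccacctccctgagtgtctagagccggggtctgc
The capitals before the outer start are a TATA box (TATAAA) whose first base lies 40 bases upstream, and 12.4% of all 32851 promoter windows of this length hold these letters on either strand. Those before the inner start match the NF-kB consensus, with the first base 161 bases upstream. Of all windows, 7.3% hold such a match at any position on either strand. The outer window had a GC content of 52.0% and the inner one 56.8%, against a median of 52.4% over all windows.

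The 9 windows of the 4 genes had different motifs. Among the 4 starts of Pmp22, an NF-kB match lay 232 bases before the innermost one, and GC boxes (GGGCGG, in 32.7% of all windows) lay before 2 of the 4. The single Emp2 window held 2 GC boxes. The outer Emp1 window held 2 matches to the interferon-gamma activated site (TTCNNNGAA, 7.0% of windows) and 2 to the AP-1 site (TGANTCA, 6.7% of windows), the pair nearest the start overlapping each other. The interferon-stimulated response element and the PU.1 core (GAGGAA) had 0 matches in the 9 windows. These are matches of letters on both strands, and factor binding was not measured.

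Before the family's results, the arrays and the targeted gene were examined. Array medians lay between 6.0 and 6.1. Between their 10th and 90th percentiles the Myd88−/− arrays covered 6.83 to 7.13 log2 units and the Myd88+/+ arrays 7.10 to 7.30. Myd88 itself, on chromosome 9, read 7.33, 6.80 and 7.47 in Myd88−/− glands, against 7.81, 7.86 and 7.53 in Myd88+/+ glands. The sources used here do not say whether its probe set lies in the deleted part, and one outside it checks nothing. None of the 4 family genes is on chromosome 9. Salivary identity was plain in both groups, as the granular duct protease gene Klk1 stood at the top of the scale on all arrays and Aqp5, the water channel of acinar cells, averaged 13.84 ± 0.10 over Myd88−/− glands and 13.98 ± 0.30 over Myd88+/+ glands (SD, n = 3 each).

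Myd88+/+ replicate 3 stood apart from the other mice. Dcpp3, a demilune and parotid protein gene of salivary acini, read 14.91 in it, against 4.65 to 6.59 in the other 5 mice, and Galnt12, the 1 measured gene of the sublingual list, read 6.38 in it, against 3.604 to 4.31 in the others. This mouse was also the highest for Emp3, Emp2, Emp1 and the leukocyte lists. Without it the log2 differences were −1.52 for Emp3, −0.62 for Pmp22, −0.32 for Emp1 and −0.21 for Emp2. What sets this gland apart was not tested.

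Emp3 was lower in every Myd88−/− gland than in any Myd88+/+ gland. It read 7.38, 7.57 and 7.38 in Myd88−/− replicates 1, 2 and 3, against 8.86, 9.07 and 9.48 in Myd88+/+ replicates 1, 2 and 3. The highest Myd88−/− value and the lowest Myd88+/+ value were 1.29 log2 units apart. Myd88−/− glands averaged 7.44 ± 0.11 and Myd88+/+ glands 9.14 ± 0.32 (SD, n = 3 each). The log2 difference was −1.70 (SE 0.20), a 3.24-fold lower level. This was the 37th most negative difference among 22206 tested probe sets. All 6 values lay well above 5.55, the median of the probe sets that measure array background.

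Pmp22 read 8.49, 8.69 and 8.40 in Myd88−/− glands, against 8.998, 9.30 and 9.24 in Myd88+/+ glands. The groups did not overlap, with 0.30 log2 units between the nearest mice. Myd88−/− glands averaged 8.53 ± 0.15 and Myd88+/+ glands 9.18 ± 0.16 (SD, n = 3 each), a 1.57-fold lower level. The log2 difference was −0.65, with a 95% confidence interval for this gene taken singly of −1.04 to −0.26, and it missed the threshold over the whole table (limma adjusted p = 0.37, lower in 3 of 3 Myd88−/− mice). The spread between mice was much the same in both groups, 0.30 log2 units from lowest to highest in each.

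Emp1 read 9.63, 9.75 and 9.75 in Myd88−/− glands, against 9.85, 10.22 and 10.31 in Myd88+/+ glands. The groups did not overlap, but only 0.09 log2 units parted the nearest mice. The log2 difference was −0.42, a 1.33-fold lower level, with a 95% interval for this gene of −0.82 to −0.01, and it did not pass (limma adjusted p = 0.49). After quantile normalization of the deposited values the groups overlapped.

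Emp2 read 8.87, 9.51 and 8.75 in Myd88−/− glands, against 9.32, 9.19 and 10.21 in Myd88+/+ glands. The groups overlapped, because Myd88−/− replicate 2 lay above 2 of the 3 Myd88+/+ mice. The log2 difference was −0.53, with a 95% interval of −1.21 to 0.15 (limma adjusted p = 0.59). Myd88+/+ replicate 3 was 0.90 above the gene's mean over the 6 arrays, the farthest of any mouse. The interval covers a difference larger than that of Pmp22 and a small one in the other direction.

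**Figure D1:**
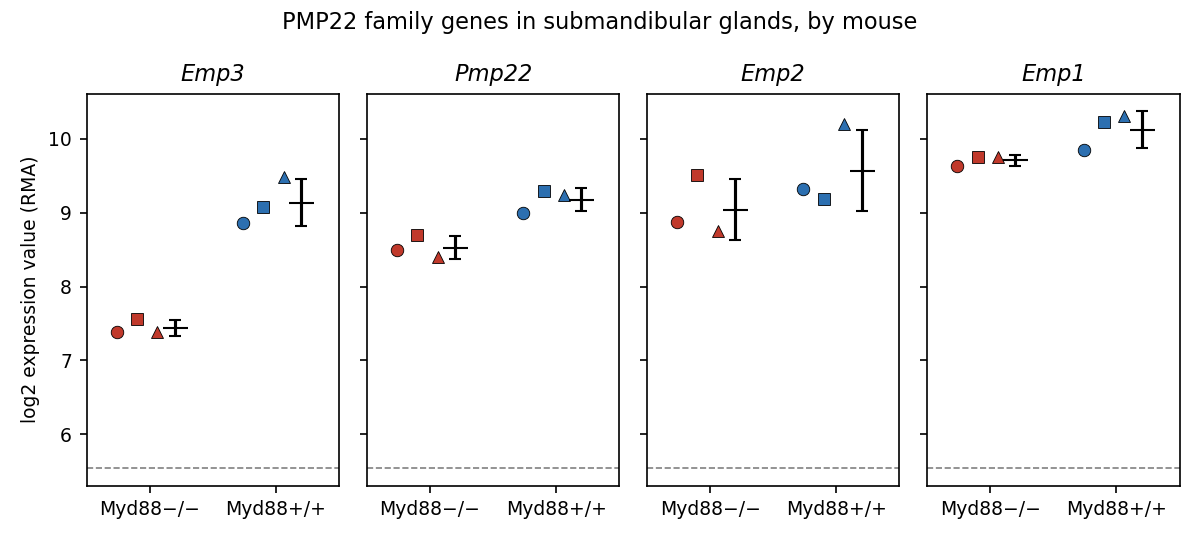
Log2 expression value of each family gene in every mouse, with Myd88−/− (red) left of Myd88+/+ (blue). Circles, squares and triangles are replicates 1, 2 and 3, black bars are the mean with SD (n = 3), and the dashed line is the array background median of 5.55. The 3 Emp3 values of Myd88−/− glands sit at 7.38 to 7.57 and those of Myd88+/+ glands at 8.86 to 9.48.

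All 4 genes had a negative difference, with a median of −0.59, and 3 of 4 were lower without overlap. Over all tested probe sets the median difference was 0.02, 47.5% were lower by any amount and 7.25% were lower without overlap. Small differences followed signal level on these arrays. Among the 3215 probe sets with a mean level of 8 to 10, where the 4 genes lie, the median was −0.10, 66.3% were lower by any amount and 11.9% were lower without overlap. As Emp3 was chosen for this contrast, nothing is read from the family's count. Limma called 0 of 22206 probe sets at an adjusted p under 0.05 (0.0%), while 2232 had an unadjusted p under 0.05.

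**Figure D2:**
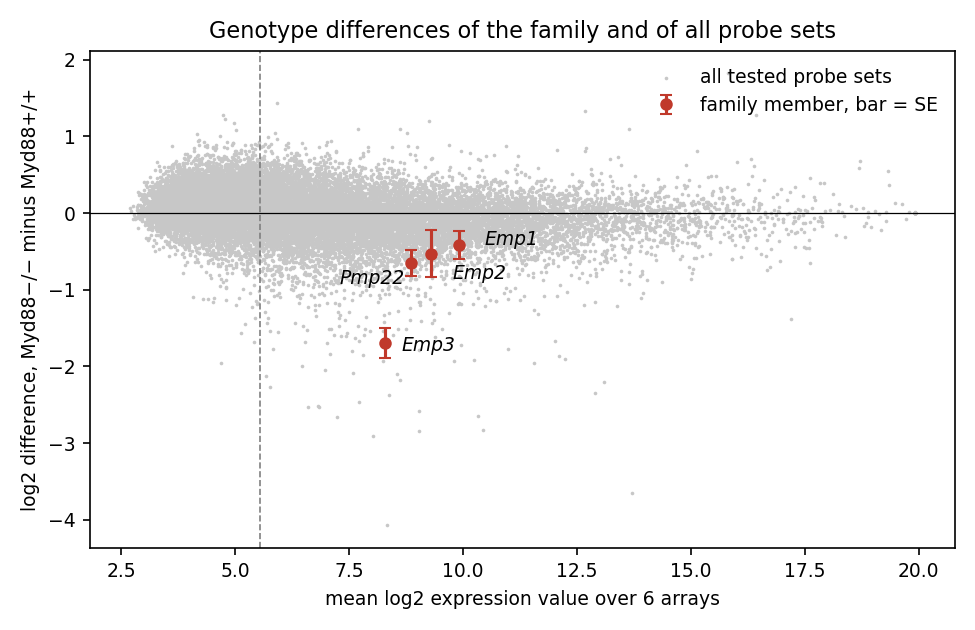
Log2 difference between Myd88−/− and Myd88+/+ glands against the mean log2 value over the 6 arrays, for all 22206 tested probe sets (grey) and the 4 family genes (red, bars are the SE). The dashed line is the array background median of 5.55. Emp3 lies at −1.70, below its relatives at −0.65 to −0.42, which sit at the lower side of the main cloud.

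The family did not follow 1 pattern across mice. With every gene set to its own mean over the 6 arrays, Emp1 and Pmp22 were the closest pair, with a root-mean-square distance of 0.16 log2 units over the 6 arrays. Emp3 lay 0.54 from Pmp22, 0.64 from Emp2 and 0.65 from Emp1, since its genotype difference is larger. Emp2 stood apart in another way, as its high mice were Myd88−/− replicate 2 and Myd88+/+ replicate 3.

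The 6 genes with the smallest distance to Emp3 were Islr, a secreted protein of stromal cells (0.22 log2 units), Dok2, an adaptor that restrains signalling in blood cells (0.24), Shisa5, which promotes cell death downstream of p53 (0.25), C1qb, a chain of complement C1q made by macrophages (0.27), Csf1r, the growth factor receptor of macrophages (0.28), and Susd2, a surface protein (0.28). Csf1r read 8.33, 8.40 and 7.96 in Myd88−/− glands, against 9.16, 9.23 and 10.00 in Myd88+/+ glands. Islr read 7.33, 7.10 and 6.84 in Myd88−/− glands, against 8.24, 8.36 and 9.19 in Myd88+/+ glands. Genes picked for their distance to Emp3 share its separation of the groups by that choice. Islr and Shisa5 lie on chromosome 9, as Myd88 does, and linkage to the targeted gene was not tested.

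**Figure D3:**
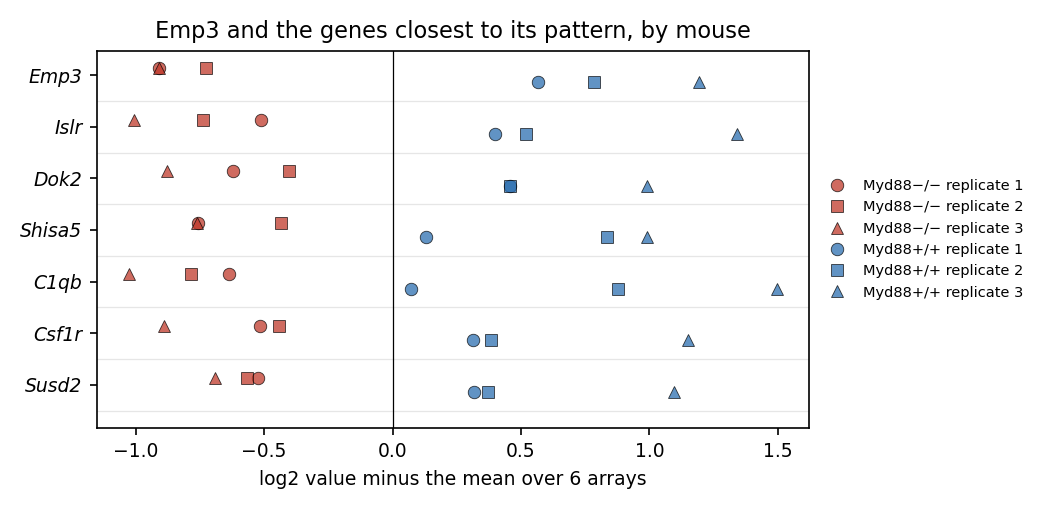
Log2 value minus the gene's mean over the 6 arrays for Emp3 and the 6 genes nearest to its pattern, from the nearest at the top (distances 0.22 to 0.28). Red marks are Myd88−/− and blue marks Myd88+/+ mice, with circles, squares and triangles for replicates 1, 2 and 3. The genes were picked for this likeness, so that their shared separation of the groups is no result.

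The nearest genes of the other members were not those nearest to Emp3. Emp2 was closest to Epha7, an ephrin receptor (0.09), Cnn1, the calponin of smooth muscle and myoepithelial cells (0.10), and Adam28, a membrane protease (0.11). Cnn1 read 10.71, 11.59 and 10.88 in Myd88−/− glands, against 11.38, 11.32 and 12.16 in Myd88+/+ glands, with the same pair of high mice as Emp2. Pmp22 was closest to Khsrp, an RNA-binding protein (0.05), Ruvbl1, an ATPase of chromatin complexes (0.07), and Aebp1, a protein of extracellular matrix (0.08). Emp1 was closest to the phosphate exporter gene Xpr1 (0.05), the adaptor subunit gene Ap4m1 (0.07) and the lipoprotein receptor gene Apobr (0.07). A gene with a small spread lies close to many others by this measure, which holds for Pmp22 and Emp1 more than for Emp3.

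Macrophage, pan-leukocyte and fibroblast genes had lower means in Myd88−/− glands, as Emp3 did, while the B and plasma cell genes given below were split in direction. C1qb and Csf1r, picked above for their distance to Emp3, are also in the macrophage list. In whole glands, fewer cells of a type and less RNA per cell cannot be told apart. Of 15 measured macrophage and monocyte genes, 15 had a lower mean in Myd88−/− glands and 9 did not overlap, with a median difference of −0.99. Over all tested probe sets 47.5% were lower and 7.25% were lower without overlap, against 66.3% and 11.9% at mean levels of 8 to 10. Without Myd88+/+ replicate 3 the macrophage median was −0.75. Their summed linear level was 2839.8 to 3805.9 in Myd88−/− and 5276.2 to 16027.3 in Myd88+/+ glands. The highest sum was that of Myd88+/+ replicate 3, where Lyz2 at 12.59 and Ly86 at 11.80 weighed most. The Myd88−/− means of Itgam and Cx3cr1 lay under the background median. Csf1r had a log2 difference of −1.23, the macrophage receptor gene Adgre1 −0.81 and the complement gene C1qa −0.87. Of 10 pan-leukocyte genes, 10 were lower and 5 did not overlap (median −0.77), and without Myd88+/+ replicate 3 the median was −0.45. Lcp1, an actin-bundling protein, made up most of their summed level and had a difference of −0.14. The sum with Lcp1 was 36362.3 to 45976.5 in Myd88−/− and 43838.8 to 52708.4 in Myd88+/+ glands. The other 9 genes had differences of −1.83 to −0.53 and summed to 1424.6 to 1742.7 in Myd88−/− and 2101.1 to 7497.0 in Myd88+/+ glands. Ptprc, the common leukocyte antigen CD45, read 8.28, 8.90 and 8.60 in Myd88−/− glands, against 9.28, 9.91 and 11.43 in Myd88+/+ glands.

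Of 9 fibroblast genes, 9 were lower and 6 did not overlap (median −0.50), where 7.25% of all probe sets were lower without overlap. The 6 included the collagen genes Col1a1 with −0.52 and Col1a2 with −1.12. The sums over the 9 genes were 154698.4 to 210280.6 in Myd88−/− and 203612.1 to 267151.9 in Myd88+/+ glands. Dcn made up most of these sums, and its groups overlapped, with a log2 difference of −0.46. In the macrophage, pan-leukocyte and fibroblast lists, 0 genes passed the limma threshold of an adjusted p under 0.05. The part of these cell types in the Emp3 difference was not tested.

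The list scores show the same mice. A list score is the mean over its genes of the log2 value minus the gene's mean over the 6 arrays. The pan-leukocyte score was −0.40, −0.49 and −0.50 in Myd88−/− replicates 1, 2 and 3, against −0.09, 0.32 and 1.17 in Myd88+/+ replicates 1, 2 and 3. Emp3 on the same scale was −0.91, −0.72 and −0.91 in Myd88−/− mice, against 0.57, 0.78 and 1.19 in Myd88+/+ mice. Both had their highest value in Myd88+/+ replicate 3. From lowest to highest Myd88+/+ mouse, Emp3 spanned 0.62 log2 units, the macrophage score 1.05, the pan-leukocyte score 1.25 and the fibroblast score 0.51.

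The other cell types of the gland and its surroundings gave mixed counts, beside 47.5% lower and 7.25% lower without overlap over all tested probe sets. T and NK cell genes had 11 of 11 lower means (median −0.88, and −0.51 without Myd88+/+ replicate 3) and 4 of 11 without overlap, but in 8 of the 11 the Myd88−/− mean lay under the background median. For example, the T cell gene Cd3e averaged 4.98 in Myd88−/− and 6.41 in Myd88+/+ glands. Its groups overlapped, and it read 5.13, 5.85 and 8.26 in Myd88+/+ replicates 1, 2 and 3. B and plasma cell genes had 6 lower and 3 higher of 9 (median −0.05, and 0.07 without Myd88+/+ replicate 3), and endothelial genes 7 lower and 2 higher of 9 (median −0.27), with overlapping scores. Acinar genes below the top of the scale had 8 lower and 2 higher of 10 (median −0.13), and the groups overlapped in each. Their scores did not overlap, and Dcpp3 and Bpifa2 had the widest differences, −2.52 and −2.66, against −0.35 to 0.25 for the other 8. Bpifa2, a secreted salivary protein, read 5.55, 5.78 and 6.38 in Myd88−/− glands, against 9.35, 10.07 and 6.27 in Myd88+/+ glands. Duct genes below the top of the scale had 6 lower and 4 higher of 10 (median −0.25), with overlapping scores. In 3 of the 10, Krt19, Ascl3 and Foxi1, the last 2 named after their values were seen, the Myd88−/− glands were lower without overlap. Krt19 lay under the background median in both groups, with means of 5.20 in Myd88−/− and 5.45 in Myd88+/+ glands. Stress and immediate early genes, which respond to handling of the tissue, had 7 lower and 2 higher of 9 (median −0.13, and −0.30 without Myd88+/+ replicate 3). Adipocyte genes were split, 3 lower and 3 higher of 6, or 5 and 1 without Myd88+/+ replicate 3. In 4 of these 6 both group means lay under the background median. Skeletal muscle genes had both group means under the background median in 6 of 7. The other gene, the muscle creatine kinase gene Ckm, was lower without overlap, at 6.73 in Myd88−/− and 7.39 in Myd88+/+ glands.

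The myoepithelial list ran alongside Emp2. Its score was −0.44, 0.09 and −0.39 in Myd88−/− replicates 1, 2 and 3, against 0.22, −0.02 and 0.54 in Myd88+/+ replicates 1, 2 and 3, and Emp2 on that scale was −0.44, 0.21 and −0.56, against 0.01, −0.12 and 0.90. In both, Myd88−/− replicate 2 was the highest of its group and Myd88+/+ replicate 2 the lowest. This was not particular to the myoepithelial list. The acinar score had the same order, at −0.33, −0.26 and −0.30 in Myd88−/− mice, against 0.10, 0.07 and 0.72 in Myd88+/+ mice. The fibroblast score also had Myd88−/− replicate 2 as the highest of its group, at −0.09. All 10 measured genes of the myoepithelial list had lower means in Myd88−/− glands (median −0.49, and −0.27 without Myd88+/+ replicate 3). Of these 1 did not overlap, Trp63, the transcription factor of basal cells, with −1.18. That 1 of 10 (10.0%) compares with 7.25% of all tested probe sets. Sums over the 10 genes were 7801.2 to 13990.5 in Myd88−/− and 13353.2 to 21845.1 in Myd88+/+ glands. The brightest of the 10, Acta2 and Cnn1, weighed most in these sums, and the groups overlapped in both. The part of these cells in the Emp2 values was not tested.

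**Figure D4:**
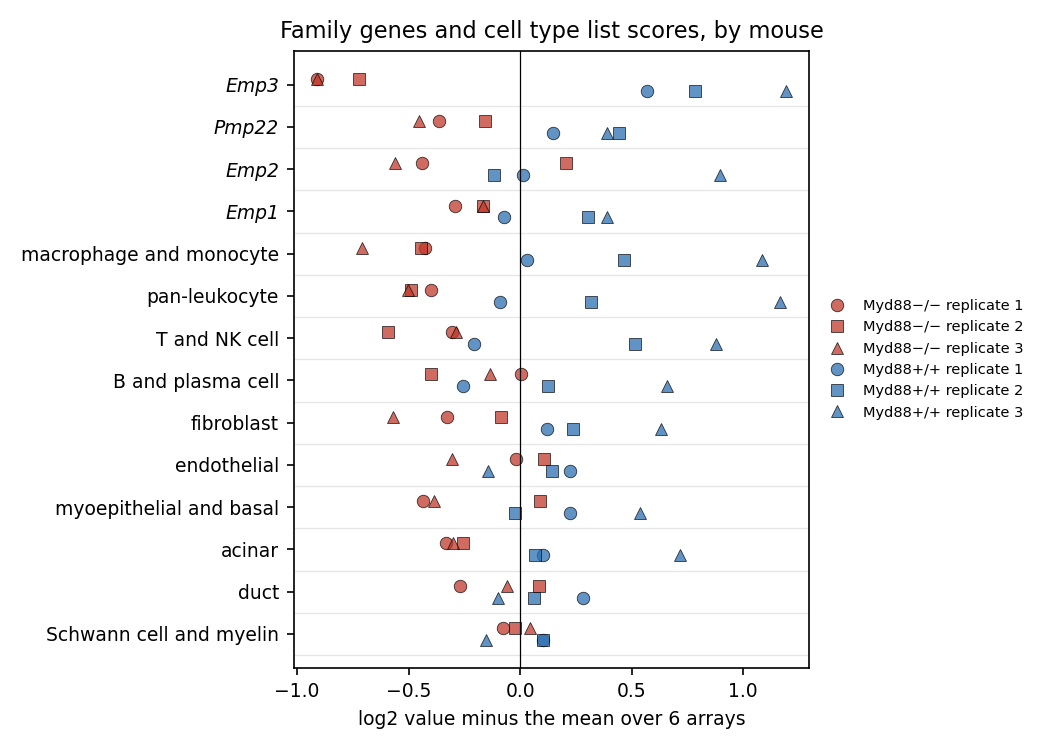
Log2 value minus the mean over the 6 arrays for the 4 family genes, and the mean of that quantity over the genes of each cell type list, by mouse. Red marks are Myd88−/− and blue marks Myd88+/+ mice, with circles, squares and triangles for replicates 1, 2 and 3. Myd88+/+ replicate 3 is the highest mouse for Emp3, at 1.19, and for the pan-leukocyte score, at 1.17.

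The myelin genes, among which Pmp22 is best known, were split in direction. Of 15 measured Schwann cell and myelin genes, 8 were lower and 7 higher (median −0.01), or 11 and 4 without Myd88+/+ replicate 3 (median −0.08), 0 passed, and scores overlapped, at −0.08 to 0.04 in Myd88−/− and −0.15 to 0.10 in Myd88+/+ glands. Both group means lay under the background median in 8 of the 15, among them Mbp, a structural protein of myelin, with 5.13 in Myd88−/− and 5.47 in Myd88+/+ glands. Egr2, the transcription factor that switches on myelin genes, averaged 7.02 in Myd88−/− and 7.14 in Myd88+/+ glands. Sox10, a factor of Schwann cells that salivary acinar cells make as well, averaged 12.52 in Myd88−/− and 12.57 in Myd88+/+ glands. The 1 gene of the list without overlap was Erbb3, the neuregulin receptor, which epithelia also make, with −0.51, named after its value was seen. That 1 of 15 (6.67%) compares with 7.25% of all tested probe sets.

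More distant relatives of the family were split in direction. Of 19 genes with the same fold, 7 were lower and 12 higher (median 0.15), with 0 past the test, and both group means lay under the background median in 9 of them. Perp, a desmosome protein of epithelia, had a log2 difference of −0.21, from bright values of 12.57 in Myd88−/− and 12.78 in Myd88+/+ glands. Tmem47, a junction protein, was the 1 lower gene of 19 without overlap (5.26%), where 7.25% of all tested probe sets were lower without overlap. It averaged 9.25 ± 0.33 in the Myd88−/− group and 9.91 ± 0.21 in the Myd88+/+ group (SD, n = 3 each; limma adjusted p = 0.41). Lim2, a protein of the eye lens, was under the background median in both groups, at 4.51 in Myd88−/− and 4.12 in Myd88+/+ glands.

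Proteins reported to bind family members were also split, with 6 lower and 4 higher of 10 measured (median −0.20) and 0 past the test. P2rx7, the ATP receptor named above, averaged 8.20 ± 0.35 in the Myd88−/− group and 8.50 ± 0.14 in the Myd88+/+ group, with overlap (SD, n = 3 each). Itgb4, the integrin chain bound by Pmp22, averaged 8.90 ± 0.14 in the Myd88−/− group and 9.15 ± 0.16 in the Myd88+/+ group, also with overlap (SD, n = 3 each). Tgfbr2, the TGF-beta receptor reported to bind EMP3 in human cells, was the 1 gene of 10 lower without overlap (10.0%). Over all tested probe sets 7.25% were lower without overlap, and 11.9% at mean levels of 8 to 10. Tgfbr2 averaged 9.05 ± 0.16 in the Myd88−/− group and 9.43 ± 0.13 in the Myd88+/+ group (SD, n = 3 each; limma adjusted p = 0.50). It lies on chromosome 9, as Myd88 does, and linkage to the targeted gene was not tested.

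The neighbours of the 4 genes on their chromosomes differed in both directions. On chromosome 7, the nearest named genes to Emp3 in the RefSeq order were Syngr4 with 0.30, Tmem143 with −0.47, Abcc6 with 0.15 and Nomo1 with 0.41, and in each of them the groups overlapped. All but Nomo1 had both group means under the background median. Around Pmp22 on chromosome 11, Cdrt4, Tekt3, Hs3st3b1 and Cox10 had −0.12, 0.29, 0.13 and 0.00, and Tekt3, under the background median, was higher without overlap. Around Emp2 on chromosome 16, Rpl39l, Atf7ip2, Nubp1 and Tvp23a had −0.09, 0.51, −0.20 and 0.13. Around Emp1 on chromosome 6, Gsg1, Pbp2, Grin2b and Eif4a3l1 had 0.02, 0.43, 0.42 and 0.06, and the groups did not overlap in Pbp2 and Grin2b, whose means lay under the background median.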

How the data were processed

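Total RNA of 6 glands was hybridised to Clariom S arrays, 1 per mouse. The deposited values are log2 expression values made by the authors by the robust multi-array average (RMA) in Transcriptome Analysis Console software, per the labels. That step corrects background, normalizes between arrays and summarises probes, which shrinks differences near background, and values stop at a ceiling of 19.93. No software version or genome build is named in the sources used here. Of 28846 probe sets 6640 were controls, and 22206 were tested, 19572 of them with 1 gene symbol and 2634 unnamed. Of the 19572, 19569 were found in RefSeq (GRCm38.p6) by Entrez identifier.

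Groups came from sample titles. Myd88−/− and Myd88+/+ glands were compared in R 4.3.3 with the functions lmFit and eBayes of limma 3.58.1, without covariates. P-values were adjusted by Benjamini-Hochberg over the whole table, with a threshold of 0.05. The number of arrays limits the precision. The 15 pairs of arrays correlated at 0.982 to 0.991 across probe sets, and 0 pairs were identical. The members, lists, motifs and tests were chosen with earlier results of these data known. Genes named are the members, Myd88, the first 3 measured genes of each list, the nearest genes on the chromosome and the genes closest in pattern, unless said otherwise. Further examples given for a list were chosen after their values were seen. Predicted genes were passed over, and only genes with a mean above 5.55 were searched for likeness.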

Additional observations from a re-analysis of the deposited data

How the results depend on the processing

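The differences of Emp3, Pmp22, Emp2 and Emp1 were negative after quantile normalization, after median centring and without each mouse. The filter on the dimmest 30% of probe sets, the variance trend with robust variances and the replicate block cannot move a mean difference in this balanced design, and bear only on the p-values. Emp3 was −1.58 after quantile normalization, −1.72 after median centring and −1.84 to −1.52 without 1 mouse. Pmp22 ran from −0.74 to −0.51, Emp1 from −0.56 to −0.29 and Emp2 from −0.76 to −0.21 over all settings, and none of these 3 passed under any of them (limma adjusted p of 0.22 to 0.68, 0.39 to 0.73 and 0.33 to 0.85). Members lower without overlap numbered 2 after quantile normalization and 4 without Myd88−/− replicate 2, alternatives added after seeing the data. Over all tested probe sets 6.79% and 15.5% were lower without overlap in these settings, against 7.25% in the main setting. Limma called 0 probe sets in the main setting, 2 after median centring (Emp3 and Rnase1) and 4 under the trend and robust variances (these and Ly6c1 and Tmem176a), all lower. Without 1 mouse it called 0 to 5, namely 5 without Myd88+/+ replicate 1, 1 without Myd88+/+ replicate 3 (Bpifa2) and 1 without Myd88−/− replicate 2 (Igfbp5), and Emp3 was not among them. The cause was not tested, and since Emp3 was chosen on this contrast its calls are no support. Each member had 1 named probe set, so another probe set could not be tried. Replicate numbers are shared by both groups, but same-numbered mice did not deviate together (r = −0.11, −0.15 and −0.02 across probe sets). With the replicate number as a block limma called 0 probe sets, the difference of Emp3 is −1.70 by construction, and the adjusted p was 0.55 for Pmp22, 0.61 for Emp1 and 0.69 for Emp2.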
